A study of Mus musculus with 6 samples.

Results

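G-rich sites that were labelled potential G-quadruplexes or potential G-triplexes were described here in mouse embryonic stem cells and their differentiating progeny. The members are the 458 listed reverse transcription stop sites whose class begins with potential G-quadruplex or potential G-triplex and whose position in the gene is exactly 3UTR or exactly CDS, of 5538 listed sites in all. The 6 samples were taken at day 0, day 3 and day 7, with 2 replicates a day, and each has a table of reads and stops over the same sites after reverse transcription in K+ and in Li+. Each day 7 sample also has a table whose name marks it as in vitro, so that there are 8 tables. All samples come from 1 clonal embryonic stem cell line that carries the TsixTST allele over a wild-type allele (TsixTST/+), of the cross 129S1/CastEiJ x 129S1. Their genotype label is WT and their treatment label is None, and the day 3 and day 7 cells were embryoid bodies that had lost LIF and the feeder layer. The day 3 cells were in suspension and the day 7 cells attached, so culture form and day cannot be told apart. Every in-cell sample was exposed to dimethyl sulfate, and chromatin-bound poly A+ RNA was then isolated. The labels do not say whether the RNA of the in vitro tables was exposed too. Nothing says that replicates were separate cultures, so the p-values below measure the spread between these samples only, which may be technical.

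A G-quadruplex is a fold of G-rich RNA in which guanines pair in flat squares that stack on one another, and a G-triplex is the related fold that one G run fewer can form. K+ sits between the squares and holds the fold, while Li+ does not, so a reverse transcriptase that stops more often in K+ than in Li+ marks a fold. Dimethyl sulfate methylates guanines that are not folded at the moment of treatment, which prevents refolding in the test tube. A fold that was open in the cell therefore gives few K+ stops in the in-cell tables and many in an in vitro preparation. The stop share used below is the number of cDNA ends at a site per 100 reads over it, in percent.

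The sequences that the results turn on are given first, as the last 30 bases of the deposited 60-base window, 5′ to 3′ on the RNA strand with T for U. Runs of 2 or more G are in capitals, and the marked stop lies within the last 3 bases. Coordinates are those of the tables on GRCm38.p6, counted from 1. The first group holds sites where the K+ stops or the in-cell share stood out across days.
Peg3 (3UTR, chr7:6704461-6704490, minus strand): ttaaaaatagtgtttttttGGGGGGGGGGt
Peg10 upstream (3UTR, chr6:4759629-4759658, plus strand): ataatcataagtattttGGGctGGGaGGGa
Peg10 downstream (3UTR, chr6:4759652-4759681, plus strand): GGaGGGattgttaagtaatcttaGGtGGGt
Rps15 (CDS, chr10:80293667-80293696, plus strand): gcccgccagaGGaGGcgcctgaaccgtGGt
Eif5a (3UTR, chr11:69916857-69916886, minus strand): caaacccctgtaGGGGtGGtgagaagaGGa
Psmd8 (3UTR, chr7:29174435-29174464, minus strand): aagcgtttcccagttgtcattgctctGGGt
The next group holds Rack1 and Gm45713, whose K+ shares in cells reached or passed those in vitro, Cdk11b, with the smallest adjusted p between in vitro and day 7, and Snw1, with no Li+ stop in vitro.
Rack1 (CDS, chr11:48802318-48802347, plus strand): gagcgtGGccttctcctctgacaaccGGca
Gm45713 (CDS, chr7:45127068-45127097, minus strand): gacagtaaagtatctGGcctttctccGGaa
Cdk11b (CDS, chr4:155630273-155630302, plus strand): aaGGGagtGGGaaagacagaagaGGaGGGa
Snw1 (3UTR, chr12:87450361-87450390, minus strand): GGGGtGGGGacatcctcttGGaaatGGGGG
The last group holds sites with K+ above Li+ in most in-cell samples or a change in that relation.
Ciapin1 (3UTR, chr8:94822935-94822964, minus strand): gcgaagctgctgtGGGcagtGGGGtGGGGt
Srebf2 (3UTR, chr15:82205267-82205296, plus strand): GGaGGGGttGGtttttcactgaacaGGGGa

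The members fall into 324 sites in a 3UTR and 134 in a CDS. The quadruplex label is carried by 426 of them, 303 in a 3UTR and 123 in a CDS, and the triplex label by 32, of which 21 are in a 3UTR and 11 in a CDS. They lie in 403 gene entries, of which 47 hold several members and 8 hold 3, so sites of one gene share their transcript. Their class names add that G makes up at least 40%, yet 214 of the 458 windows (46.7%) reached 40% G over 60 bases, with a range of 18.3% to 60.0% and a median of 38.3%. The sources used here do not say over which stretch that share was counted. A member's window overlapped the window of a listed site outside the set in 120 cases, among them 59 of the class bulges, 35 two-quartet, 27 longloop and 16 canonical sites, while 303 windows overlapped no other site and 46 overlapped another member.

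Within the windows, 418 of 426 quadruplex members held at least 4 runs of 2 or more G, and 31 of 32 triplex members held exactly 3. Runs of 3 or more G were fewer. Of all members, 159 (34.7%) had at least 4 such runs, 191 (41.7%) had exactly 3, 108 (23.6%) had 2 or fewer and 12 of these had none. The CDS members were the poorer ones in such runs, with 44.0% at 2 or fewer against 15.1% of the 3UTR members. The letters GGGG, searched on the RNA strand, stood in 80.2% of 3UTR and 56.7% of CDS windows, and in 70.7% of the 157 windows with the same labels elsewhere in genes. The letters GGAGGA stood in 6.79% of 3UTR windows, 22.4% of CDS windows and 12.1% of the 157 others, and can overlap runs counted above. Loops of 1 to 7 bases between 4 runs of 3 or more G, the canonical pattern, occurred in 11 members (2.40%), against 1.91% of the others. G stood directly before the marked stop in 456 of 458 windows, and the 30 bases nearest the stop held a median of 13 G against 10 in the 30 bases before them. These features are close to what the labels were made from, and none was tested.

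Depth differed between samples. Reads over all sites in both cations came to between 1127399 and 6770280 a sample, and the members had, in an in-cell table, 11204 to 104493 K+ reads and 10597 to 193089 Li+ reads. All 95% intervals are exact (Clopper-Pearson). They, and the limits given for a count of 0, cover counting error only. At the 671 canonical sites in 3UTR or CDS, which serve as a check of the cation labels, both day 0 tables had K+ below Li+. The shares were 4.18% (4.01 to 4.36) and 4.47% (4.25 to 4.70) in replicate 1, and 2.64% (2.41 to 2.88) and 7.33% (6.96 to 7.72) in replicate 2, where the gap was wider. The comparisons below that use the cations of day 0 replicate 2 therefore give the value with its K+ and Li+ columns exchanged as well. The labelled cell type was checked by summed reads over its markers, as CPM (counts scaled to a common library size). Of 8 stem cell markers 3 have a site, Pou5f1, Esrrb and Tdgf1, and their sum was 927 and 898 at day 0, 903 and 928 at day 3, and 106 and 229 at day 7. The 4 epithelial markers summed to 111 and 159 at day 0 and to 489 and 381 at day 7, with Krt8 and Krt18 listed at 0 until day 3. The other epithelial markers did not rise in both samples. Epcam had 27.4 and 29.0 at day 0 and 25.2 and 25.2 at day 7, and Cdh1 83.8 and 130, then 179 and 113. The 3 of 5 neural markers with a site summed to 0 and 11.9 at day 0 and 140 and 113 at day 7, and the 2 of 5 primitive streak and mesoderm markers to 0 and 0 and then 146 and 216. Of the feeder and fibroblast markers Col1a1 has a site and was listed at 0 until day 3, with 8.11 and 8.51 at day 7, and no endoderm marker has a site. The part of these cell types in the changes across days was not tested.

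In vitro, every member had K+ stops in both tables. Summed over the members, the K+ share was 37.2% (95% interval 36.9 to 37.5) and 37.1% (36.8 to 37.4) in the 2 in vitro tables, against 6.20% (6.03 to 6.39) and 5.51% (5.25 to 5.79) in Li+. The replicates lay far closer to each other in K+ than the cations did. K+ was above Li+ at all of the 397 and 309 members with at least 20 reads in both cations, and at all 4491 and 3318 such sites of the whole list, so that direction is a property of the listed sites and is not read as a finding. The size varied widely among members. In replicate 1 the K+ share ran from 7.74% to 96.8% with a median of 42.5%, and in replicate 2 from 11.1% to 96.1% with a median of 43.3%. The Li+ medians were 4.44% and 3.85%, and 45 members had no Li+ stop in either table. The ratio of K+ to Li+ share, over both tables, had a median of 8.15 over the 413 members with a Li+ stop, and its lowest value was 1.35.

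By label, the triplex members had summed K+ shares near those of the quadruplex ones and higher Li+ shares. Their summed K+ shares were 41.8% (40.4 to 43.2) and 37.4% (36.1 to 38.7), against 36.9% (36.6 to 37.3) and 37.1% (36.8 to 37.4) for the quadruplex members. Their Li+ shares were 12.9% (12 to 13.8) and 8.53% (7.46 to 9.71), against 5.59% (5.41 to 5.77) and 5.22% (4.95 to 5.50). The Rps15 site alone supplied 28.0% and 27.3% of the triplex Li+ reads. It also supplied 20.2% and 19.9% of the triplex K+ reads, at K+ shares of only 21.7% and 15.0%, which lowers the triplex sums. The median K+ share of single sites was 53.0% and 41.0% for the triplex and 42.1% and 43.4% for the quadruplex members. No test compared the labels. The 3UTR members had K+ shares of 38.4% (38.1 to 38.8) and 38.0% (37.7 to 38.3), and the CDS members 32.3% (31.6 to 33.0) and 33.0% (32.3 to 33.6). Members whose window overlapped a site of another class had median shares of 32.7% and 34.7%, lower than the 47.8% and 47.5% of members that overlapped no site.

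As a description across sites, the in vitro K+ shares of the replicates had a Spearman correlation of 0.87 over 458 members. The share over both tables was only weakly related to the window's counts of G and G runs. The correlation was −0.19 for the number of G, −0.17 for runs of 2 or more G, −0.07 for runs of 3 or more G and −0.11 for the longest run. No other feature of the sequence was correlated with it. The points share libraries, and members of one gene share depth.

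Of the 58 members with at least 100 reads per cation in both in vitro tables, the 5 highest K+ to Li+ ratios belonged to Snw1, Canx, Arnt, Tubb5 and Clic1. Snw1 encodes a protein of the spliceosome. Its site had K+ shares of 21.4% and 16.9% and no Li+ stop in 179 and 100 reads, which allows up to 1.68% and 3.00%. Canx, the chaperone calnexin of the endoplasmic reticulum, had K+ shares of 18.7% and 15.5% against 0.660% and 0 in 166 reads (up to 1.81% allowed) in Li+, a ratio of 39.7. Arnt, the partner of the aryl hydrocarbon receptor and of hypoxia-inducible factors, reached a ratio of 18.1, and Tubb5, a beta tubulin, and Clic1, an intracellular chloride channel protein, 15.5 each. A high ratio thus came with low or high K+ shares alike, since Clic1 stopped 62.7% and 63.9% of K+ reads and Tubb5 14.2% and 12.1%.

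The 5 lowest ratios belonged to Rps15 (1.35), Eif5a (1.93), Rack1 (2.10), Tmsb4x (2.31) and Gm45713 (2.68). Rps15 is a protein of the small ribosomal subunit, Eif5a a translation factor that carries hypusine, Rack1 a scaffold protein on the ribosome and Tmsb4x an actin-monomer binding peptide. The Gm45713 entry also names Rpl13a, a protein of the large ribosomal subunit. The Rps15 site had K+ shares of 21.7% and 15.0% against Li+ shares of 15.6% and 8.53%. Genes such as these have near-identical copies elsewhere in the genome or overlap another gene, and the sources used here do not say whether reads that map to several places were kept, which leaves these values uncertain. Over their 60-base windows Rps15 and Rack1 have no run of 3 or more G, Eif5a and Gm45713 have 1 and Tmsb4x has 2.

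**Figure D1:**
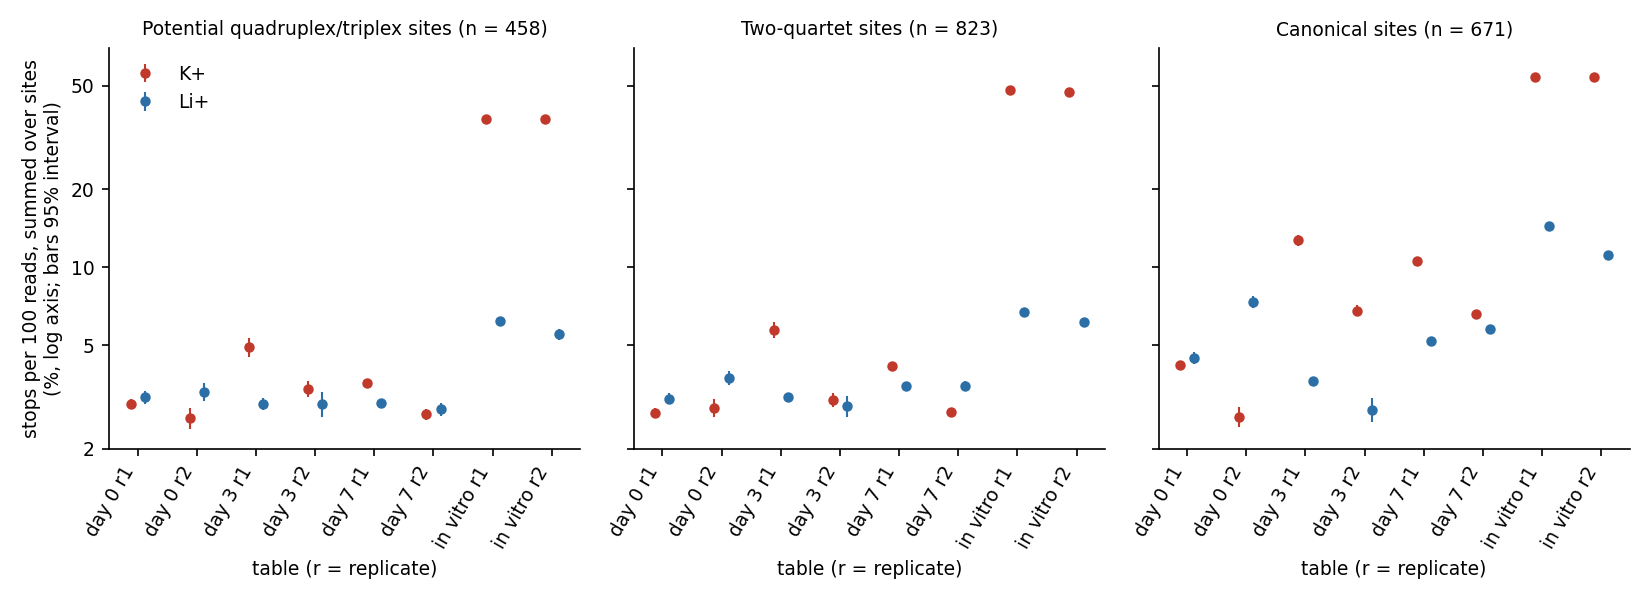
Stops per 100 reads (percent, log axis) summed over the members, over two-quartet sites and over canonical sites in 3UTR or CDS, for each of the 8 tables in K+ (red) and Li+ (blue), with exact 95% intervals. The members lie between 2.62% and 4.91% in K+ in all 6 in-cell tables and at 37.2% and 37.1% in vitro, while canonical sites reach 12.7% in a day 3 table.

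In cells the same sites stopped few reads in either cation, and the gap between the cations was widest in day 3 replicate 1. The members' K+ and Li+ shares were 2.97% (2.83 to 3.11) and 3.16% (2.97 to 3.35) in day 0 replicate 1, and 2.62% (2.39 to 2.87) and 3.31% (3.06 to 3.57) in replicate 2. At day 3 they were 4.91% (4.52 to 5.33) and 2.97% (2.82 to 3.13) in replicate 1, and 3.39% (3.16 to 3.64) and 2.96% (2.65 to 3.30) in replicate 2. At day 7 they were 3.56% (3.45 to 3.68) and 2.99% (2.92 to 3.07) in replicate 1, and 2.71% (2.57 to 2.85) and 2.84% (2.67 to 3.01) in replicate 2. K+ was thus above Li+ in both day 3 samples and in 1 of 2 day 7 samples, and below it in both day 0 samples, while exchanging the columns of day 0 replicate 2 would put K+ above Li+ there, at 3.31% and 2.62%. In day 7 replicate 1 the excess of K+ over Li+ was 0.571 points, 1.84% of the 31.0 points in the matching in vitro table, and in replicate 2 K+ was below Li+ by 0.127 points. A few sites weigh heavily in these sums. In day 0 replicate 1, Rack1, Gm45713 and Rps15 had 318, 151 and 117 of the 1789 K+ stops. The median share of single sites with at least 20 reads was 1.92% in K+ and 2.18% in Li+ there.

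Site by site, K+ was above Li+ at 41.0% and 38.1% of the members with at least 20 reads in both cations at day 0, at 58.7% and 47.8% at day 3, and at 55.7% and 44.9% at day 7. With the columns of day 0 replicate 2 exchanged, 38.1% became 47.6%. For canonical sites the same values were 44.6% and 16.1%, 85.3% and 84.1%, and 84.7% and 55.9%, and the exchange turned 16.1% into 74.7%. The summed day 7 shares of canonical sites were 10.5% and 6.60% in K+ against 5.21% and 5.78% in Li+. The 823 two-quartet sites in 3UTR or CDS lay nearer to the members, with 4.18% and 2.76% in K+ against 3.49% and 3.50% in Li+ at day 7. No test compared the classes, since sites of one table are not replicates.

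The test of K+ against Li+ within a day, limma on the log2 odds of a stop over all 847 sites with at least 20 reads in all 12 in-cell libraries, included 105 members. No member passed an adjusted p of 0.05 on any day, nor did any of the 847 sites (a background of 0.0%), and exchanging the columns of day 0 replicate 2 left the members' count at 0 on day 0. At an unadjusted p under 0.05 there were 2, 6 and 4 members at day 0, 3 and 7, of 65, 144 and 31 sites in all. The members' median log2 difference was −0.29, 0.46 and 0.06, beside −0.34, 0.72 and 0.19 over all sites tested.

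K+ was above Li+ in all 6 samples at 1 of the 105 members, a share of 0.952% beside a background of 1.30%. In at least 5 samples it was above at 11 (10.5%, background 15.7%). The first share rests on 1 member and lies near its background, and neither share was tested against all sites. With the columns of day 0 replicate 2 exchanged, 5 members had 6 of 6 (4.76%, background 8.26%) and 17 had at least 5 (16.2%, background 27.7%). The site with 6 of 6 as labelled was Ciapin1 at chr8:94822868-94822897, in the 3UTR of a factor that assembles iron-sulfur proteins. Its K+ and Li+ shares were 2.96% and 1.86%, and 8.57% and 5.41%, at day 0, then 10.3% and 3.01%, and 4.71% and 0, at day 3, and 3.18% and 2.69%, and 2.55% and 1.63%, at day 7. The Li+ value of 0 rests on 43 reads and allows up to 6.98%. A neighbouring Ciapin1 site, printed above, was above in 5 of 6, and its day 3 difference had the smallest adjusted p of the Ciapin1 sites, 0.103 in limma with a log2 difference of 2.07 ± 0.62 (SE). The other sites with 5 of 6 were in Glul, Tmem256, Stk38, Arnt, Ociad1, Rnf10, Hnrnpa2b1, Psmd8 and Asna1. After the exchange this first Ciapin1 site had 5 of 6, and the 5 with 6 of 6 were in Stk38, Arnt, Ociad1, Rnf10 and Ciapin1, the last being the site printed above. These names were chosen after their values were seen.

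Arnt is shown in full, since it also has a high in vitro ratio. Its K+ and Li+ shares were 6.36% (3.98 to 9.56) and 3.61% (1.67 to 6.75) in day 0 replicate 1, and 1.59% (0.0402 to 8.53) and 13.0% (6.14 to 23.3) in replicate 2. At day 3 they were 8.99% (3.96 to 16.9) and 1.39% (0.380 to 3.52), then 8.57% (3.21 to 17.7) and 2.5% (0.0633 to 13.2). At day 7 they were 13.5% (9.34 to 18.6) and 2.09% (0.908 to 4.08), then 8.00% (4.20 to 13.6) and 1.41% (0.291 to 4.06). All samples but day 0 replicate 2 had K+ above Li+ at this site. The day 7 log2 difference in odds was 2.63 ± 0.67 (SE), with an adjusted p of 0.665 in limma, and the in vitro K+ shares were 36.2% and 35.0%.

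The change of K+ against Li+ between days was compared in the same limma fit, a test added after the data were seen. From day 0 to day 3 it passed at 1 of 105 members (0.952%), beside 8 of 847 sites (0.945%), all in the direction of more K+ excess at day 3. The member is Srebf2, a transcription factor of sterol synthesis, with a log2 difference of 4.31 ± 0.92 (SE) and an adjusted p of 0.0472. Its K+ and Li+ shares were 1.71% (0.691 to 3.49) and 5.42% (2.92 to 9.08), and 1.49% (0.309 to 4.3) and 6.79% (3.44 to 11.8), at day 0. At day 3 they were 10.5% (3.96 to 21.5) and 1.42% (0.389 to 3.60), and 5.17% (1.92 to 10.9) and 0 in 37 reads, which allows up to 8.11%. At day 7 they were 3.80% and 1.89%, and 3.62% and 2.62%. The K+ shares of day 0 and day 3 did not overlap as labelled, and they do after the exchange, while the limit on the Li+ value of 0 reaches past the day 0 Li+ shares. The call was lost without day 0 replicate 2 (adjusted p = 0.331), without day 3 replicate 1 (0.370) and without day 3 replicate 2 (0.0688). It was also lost after exchanging K+ and Li+ in day 0 replicate 2 (0.846, log2 difference 2.30), at a coverage of at least 10 (0.0640) and with a pseudocount of 1 (0.0503). From day 0 to day 7 and from day 3 to day 7 no member passed in limma, with 3 and 3 at an unadjusted p under 0.05, and none of the 847 sites did.

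Setting the in vitro K+ shares beside those of day 7 cells, both in vitro values exceeded both day 7 values at 341 of the 343 members with at least 20 K+ reads in all 4 tables. Over all sites this held for 99.7% of 3497, so the members did not stand apart. The difference of K+ against Li+ odds between in vitro and day 7 cells passed at 186 of 268 members tested in limma (69.4%), beside a background of 75.3%, and at none in the other direction. The median log2 difference was 3.34 for members and 3.40 for all 2648 sites tested. The sites were listed on in vitro data, which favours the in vitro side. Neither the direction nor the size of these differences, nor the order of sites below, is therefore independent of the list. Leaving out in vitro replicate 1 brought the members down to 49, and leaving out in vitro replicate 2 to 55.

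The member with the smallest adjusted p was Cdk11b, a cyclin-dependent kinase gene, at a purine-rich stretch of its CDS. Its K+ shares were 75.3% and 82.4% in vitro and 5.26% and 3.45% at day 7, against Li+ shares of 2.94% and 2.56%, and 4.72% and 7.69%. The log2 difference was 6.90 ± 0.67 (SE) with an adjusted p of 0.000242. Next came Ccnt2, a cyclin of the elongation factor P-TEFb with the triplex label, with K+ shares of 74.9% and 75.5% in vitro against 7.59% and 10.8% at day 7 and a log2 difference of 4.99 ± 0.62. The upstream Peg10 site followed with 54.6% and 59.8% against 3.2% and 1.85% (4.80 ± 0.63), and rests on more than 1000 reads in every one of these libraries. Anapc5 of the anaphase-promoting complex (5.05 ± 0.70), Cdh1, the adhesion protein E-cadherin (4.80 ± 0.69), and Snx5, a sorting nexin (6.75 ± 0.97), came next. The remaining 9 were Pym1, Ap2b1, Wdr48, Rpl22, Srebf2, Ykt6, Dlst, Ylpm1 and Clic1, with log2 differences from 3.51 to 6.41. All 15 had an adjusted p of at most 0.00130 in limma.

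The 2 exceptions to the order in K+ were Rack1 and Gm45713. At Rack1 the K+ share was 11% and 11.6% at day 0, 12% and 12.4% at day 3, 11.9% and 9.90% at day 7, and 11.7% and 12% in vitro. The Li+ share was 9.81% and 11.2%, 11.1% and 13.9%, 12.2% and 10.1% in cells, and 5.96% (4.96 to 7.09) and 4.82% (3.43 to 6.55) in vitro. The K+ values of all 8 tables thus lay between 9.90% and 12.4%, and the in vitro tables stood out by low Li+ values. At Gm45713 the K+ share was 28.1% and 36.4% at day 0, 37.0% and 33.9% at day 3, and 45.8% (40.3 to 51.3) and 36.2% (30.8 to 41.9) at day 7, but 17.6% (12.3 to 23.9) and 12.9% (9.35 to 17.1) in vitro. Its Li+ shares were 29.4% to 40% in cells and 5.95% and 4.33% in vitro. In cells K+ was above Li+ in 3 of 6 samples at Rack1 and in 4 of 6 at Gm45713.

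Psmd8, a subunit of the proteasome's regulatory particle with a triplex label, also stopped the enzyme in both cations, and mainly at day 7. Its K+ shares were 6.38% and 8.11% at day 0, 7.32% and 2.00% at day 3, and 31.8% (25.9 to 38.1) and 17.1% (10.9 to 24.9) at day 7. Its Li+ shares were 5.95% and 4.00%, 6.98% and 3.23%, and 26.1% (22.1 to 30.3) and 14.0% (7.66 to 22.7). Both day 7 values lay above all earlier ones in each cation. In vitro the Li+ share was as high as 50.7% and 46.8%, beside K+ shares of 69.6% and 71.3%. The change of its K+ stops did not pass in limma against day 0 (log2 difference 0.94 ± 0.52, adjusted p = 0.267) or day 3 (2.37 ± 0.62, adjusted p = 0.0556), and the share itself was not tested across days.

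**Figure D2:**
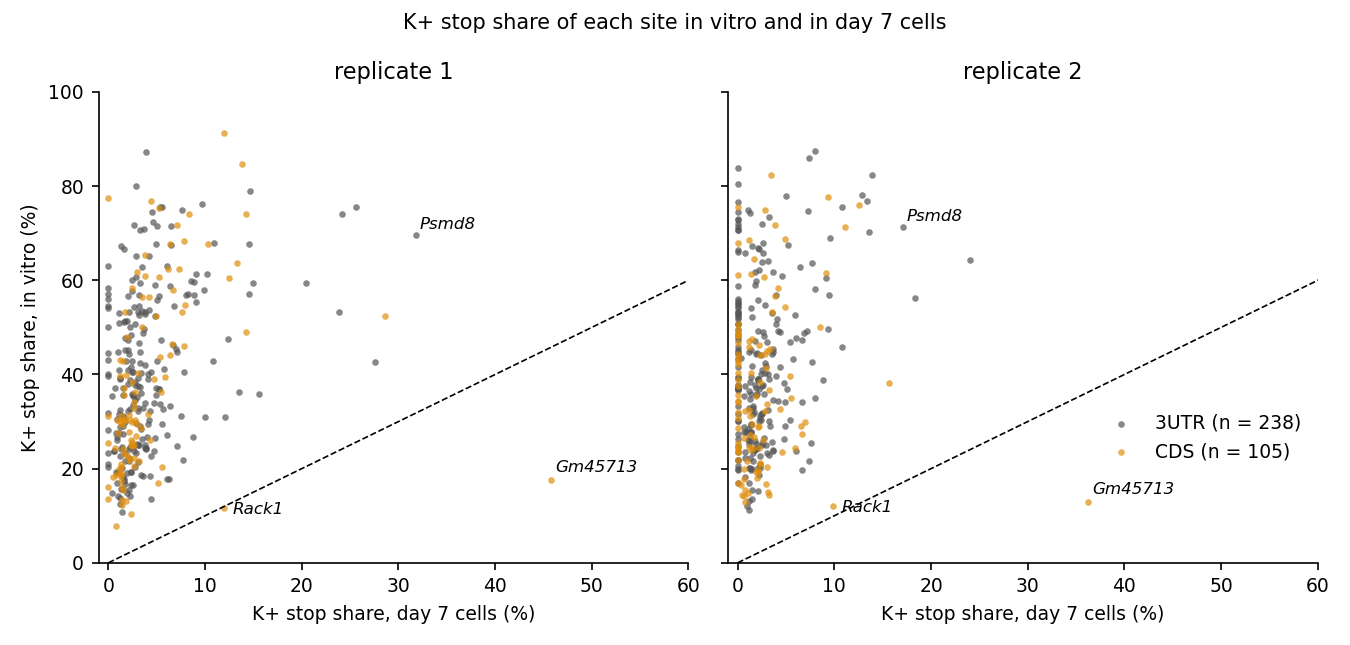
K+ stop share in vitro against that in day 7 cells (both in percent) for the 343 members with at least 20 K+ reads in all 4 tables, by replicate, with 3UTR members in grey, CDS members in orange and a dashed line of equal shares. Nearly all sites lie above the line, Gm45713 lies below it in both panels and Rack1 lies close to it.

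Across the 222 members with at least 50 K+ reads in both day 7 samples, the day 7 and in vitro K+ shares had a Spearman correlation of 0.41, and the day 7 replicates of 0.45 with each other. Both are given as a description, since the points share libraries and differ in depth.

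The number of K+ stops across days was then compared, scaled for library size. Since these are bulk samples, fewer cells of a type and less RNA per cell cannot be told apart in any value across days. Of 458 members, 22 had enough stops for limma-voom over 327 sites. Between day 0 and day 7, 3 of the 22 rose (13.6%, background 10.1%) and 4 fell (18.2%, background 6.12%), the risers all in a 3UTR. The members' median log2 difference was −0.63 beside 0.16 over all sites tested. Between day 0 and day 3 none passed, with 3 at an unadjusted p under 0.05 and 2 of 327 sites called (background 0.612% higher and 0.0% lower). Between day 3 and day 7 only Peg3 passed, upward, beside a background of 5.20%.

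The 3 sites that rose lie in the paternally expressed imprinted genes Peg3, a zinc finger gene, and Peg10, a gene derived from a retrotransposon. No K+ stop was counted at Peg3 in the 4 samples of day 0 and day 3, and 72 and 15 at day 7, or 110 ± 40.8 CPM (SD, n = 2). Against a floor of 5 stops in each library that is a rise of at least 1.78-fold over day 0 and of at least 1.96-fold over day 3, with adjusted p-values of 0.00225 and 0.00512 in limma-voom. The Peg3 site passed the count filter through its day 7 samples alone, so it could only be called higher, and these p-values are no independent support. The upstream Peg10 site had 6 and 1, 11 and 3, then 194 and 36 stops, or 26.5 ± 10.3 and 286 ± 127 CPM at day 0 and day 7, a 10.8-fold rise (log2 difference 3.01 ± 0.74 SE, adjusted p = 0.0249). The downstream Peg10 site, whose window overlaps the first, had 4 and 0, 2 and 3, then 77 and 24 stops, or 11.3 ± 15.9 and 140 ± 13.0 CPM, with a log2 difference of 3.19 ± 0.62 and an adjusted p of 0.00772. Neither Peg10 site overlapped between day 0 and day 7, which adds no support to calls made by the same comparison. The downstream site passed the count filter through its day 7 samples alone. The upstream site reached the filter's count only in the day 7 samples and in day 3 replicate 1. Without day 7 neither Peg10 site would have been tested, so both could only be called higher. Their p-values are no independent support either. A share of the rise at the Peg10 sites rests on the same RNA.

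Of the 4 sites that fell, 3 are described, those in Rps15, Eif5a and Asna1, which targets tail-anchored proteins to the endoplasmic reticulum. Rps15 had 117 and 40 stops at day 0, 38 and 29 at day 3, and 71 and 40 at day 7, or 713 ± 76.6 and 177 ± 56.8 CPM at day 0 and day 7, with a log2 difference of −2.06 ± 0.42 (SE) and an adjusted p of 0.0103. Eif5a had 74 and 29, 7 and 47, then 19 and 13 stops, or 487 ± 98.6 and 53.7 ± 24.0 CPM (−3.31 ± 0.72, adjusted p = 0.0127), and its day 3 replicates lay far apart. Asna1 had 36 and 7, 1 and 10, then 16 and 9 stops, or 169 ± 48.5 and 40 ± 12.7 CPM (−2.28 ± 0.62, adjusted p = 0.0296). Day 0 and day 7 did not overlap at any of the 3, but the sites were picked by the same comparison, so that adds no support. With total counts as the scale, which raised the median over all sites from 0.16 to 1.19, 4 members rose and 1 fell, and Rps15 and Asna1 kept their direction without passing. With the columns of day 0 replicate 2 exchanged, 5 of the 7 calls remained, 3 higher and 2 lower, and Asna1 lost its call (log2 difference −1.93, adjusted p = 0.105 in limma-voom). Leaving out a library moved the 7 calls to 1 without day 0 replicate 1 (a Peg10 site), 1 without day 0 replicate 2 (Peg3), 1 without day 7 replicate 1 (Eif5a) and 4 without day 7 replicate 2.

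**Figure D3:**
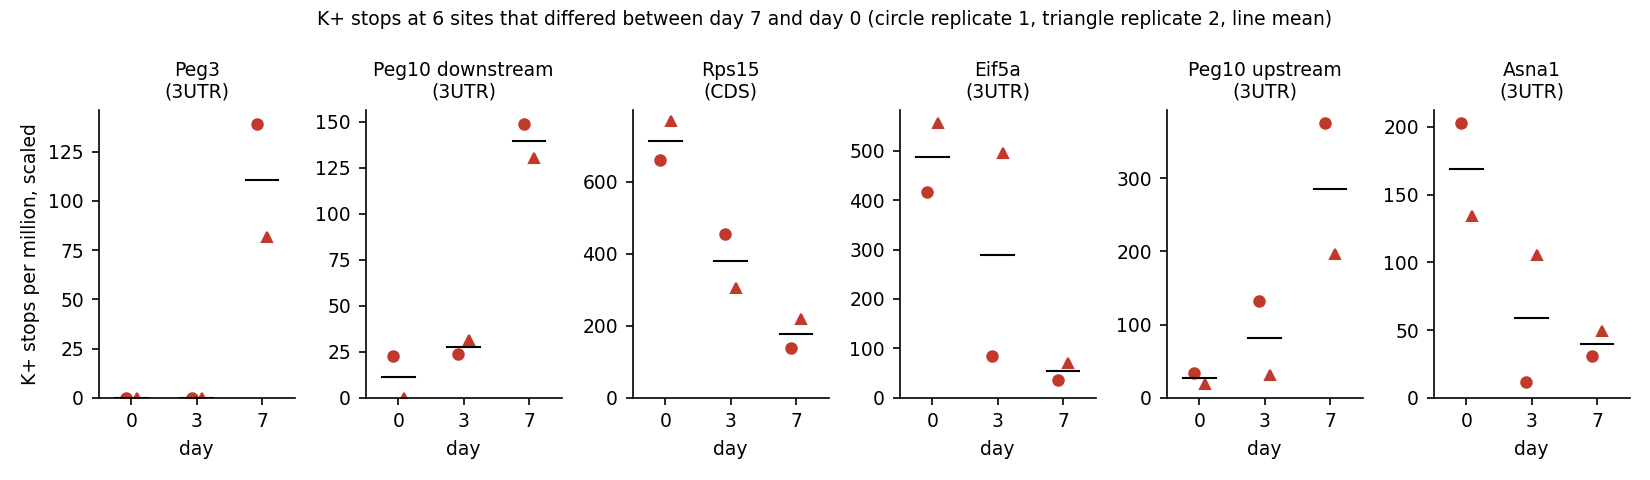
K+ stops in CPM (linear axes from 0) at 6 of the 7 members that differed between day 7 and day 0, by day, with circles for replicate 1, triangles for replicate 2 and lines for the mean of the 2 samples. Peg3 and the Peg10 sites are highest at day 7, and the other 3 sites are highest at day 0.

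The 6 sites described also changed in the same direction in reads, which are the RNA over the site in both cations together and include the reads that stop. Reads rose 22.6-fold at Peg3, with the listed zeros described below, 10.5-fold at the upstream and 11.4-fold at the downstream Peg10 site. They were 1.82-fold lower at Rps15, 4.20-fold at Eif5a and 3.23-fold at Asna1. The fall in stops at these 3 was 4.02-fold, 9.06-fold and 4.22-fold. Whether stops changed beyond reads was not tested at single sites.

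The members with the most K+ stops in cells were Rack1 with 1249 over the 6 samples, Gm45713 with 527, Rps15 with 335, Trh with 271 and the upstream Peg10 site with 251. Eef2 (222), Eif5a (189), Ciapin1 (159) and Psmd8 (116) were also among the first 10. Eef2 is the factor that moves the ribosome along the RNA.

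Reads over the members changed more widely than stops. Of 432 members tested by limma-voom, 67 sites in 60 genes rose from day 0 to day 7 (15.5%, background 16.1%) and 20 fell (4.63%, background 4.21%), so both shares were near those of all 4990 sites. Of those that rose 54 were in a 3UTR and 13 in a CDS, and of those that fell 15 and 5. The median log2 difference was 0.32 beside 0.51 over all sites. A coverage listed at 0 can stand for up to 5 reads per cation, since the tables hold no value from 1 to 5. Of the 67 sites that rose, 30 were listed at 0 in both day 0 samples and 28 in 1, and with each listed 0 counted as 10 reads per library, 64 were still above 1-fold and 41 above 2-fold. The other 9 were read in both day 0 samples. Of these, 7 had no listed 0 in either cation and rose 2.23-fold to 11.4-fold, while Peg3 (22.6-fold) and a second Arl4c site (18-fold) had 2 listed zeros by cation each, so that their folds may be too high.

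The sites that rose with the smallest adjusted p-values were as follows. Tpm1, a tropomyosin, had 130 and 31 reads at day 0, 77 and 44 at day 3, and 3399 and 1056 at day 7, or 33.7 ± 10.3 and 336 ± 37.3 CPM, a 9.98-fold rise (log2 difference 3.18 ± 0.32 SE, adjusted p = 0.00141 in limma-voom). A second Tpm1 site in the same 3UTR rose 8.69-fold. Thbs1, the matrix protein thrombospondin, and Cald1, the actin-binding caldesmon, were listed at 0 in all 4 earlier samples and had 469 and 133, and 654 and 152, reads at day 7. That is at least 7.63-fold and at least 9.80-fold against the floor of 10 reads. The matrix protein gene Ccn1 had 0 and 0, 18 and 0, then 1214 and 551 reads (at least 24.9-fold), and the small GTPase gene Arl4c 0 and 0, 34 and 13, then 865 and 243 (at least 14.0-fold). Pea15a, a death effector domain protein (at least 6.19-fold), and Farp1, a guanine nucleotide exchange factor (at least 2.68-fold), were likewise listed at 0 until day 3. Sites listed at 0 in all 4 earlier samples passed the count filter through day 7 alone, so they could only be called higher. Ccn1 reached the filter's count before day 7 only in day 3 replicate 1, so it also passed through day 7. Any site listed at 0 in both day 0 samples, Arl4c among them, could likewise only be called higher against day 0. The p-values of all these sites are no independent support. Day 0 and day 7 did not overlap at any site of this paragraph, but the sites were picked by the same comparison, so that adds no support.

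The Peg10 and Peg3 sites had reads in every sample. The downstream Peg10 site had 476 and 78, 807 and 360, then 15047 and 2972 reads, and Peg3 39 and 12, 79 and 78, then 2559 and 801, with an adjusted p of 0.00284 and 0.00375. The remaining named sites, the Wnt receptor Fzd7, the glypican Gpc1, Trim44, the histocompatibility gene H2-K1 and Nes, an intermediate filament of neural precursors, were listed at 0 in both day 0 samples and at 30 to 167 reads at day 7. They too could only be called higher against day 0, and their calls rest on what a listed 0 means. With 5 reads put in place of each, their adjusted p-values were 0.170, 0.227, 0.212, 0.210 and 0.0721, the members called were 46 higher and 22 lower, and 50 of the 87 calls remained.

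The sites that fell were all read in both day 0 samples. Eif5a had 3183 and 1464 reads at day 0, 1613 and 1294 at day 3 and 2000 and 1101 at day 7, or 1125 ± 174 and 268 ± 77.5 CPM. Adam23, a disintegrin-like membrane protein and a triplex member, had 161 and 82, 101 and 70, then 15 and 27 reads, or 60.3 ± 13.6 and 4.76 ± 4.47 CPM, a fall by 4.75 on the log2 scale (SE 0.71, adjusted p = 0.00413). Trh, the precursor of thyrotropin-releasing hormone, had 5141 and 4617, 2540 and 1541, then 8756 and 2219 reads, 3.50-fold lower in CPM at day 7, while its 2 CDS sites did not pass. The stem cell gene Tdgf1 was 2.18-fold lower, and the others included Wdtc1 (4.32-fold), Nfu1, an iron-sulfur cluster protein (2.85-fold), Cops6 of the COP9 signalosome (2.47-fold), Mpdu1 (2.38-fold), Pim3 (2.16-fold) and Bax, a promoter of cell death (2.14-fold). With total counts as the scale, which raised the median over all sites from 0.51 to 1.18, 99 members were higher and 2 lower, those 2 being Eif5a and Adam23, and all the named sites that fell kept their direction. Leaving out a library moved the 87 calls to 131 (day 0 replicate 1), 44 (day 0 replicate 2), 6 (day 7 replicate 1) and 13 (day 7 replicate 2). The 6 that remained without day 7 replicate 1 were in Eif5a, Peg10, Peg3 and Tpm1.

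**Figure D4:**
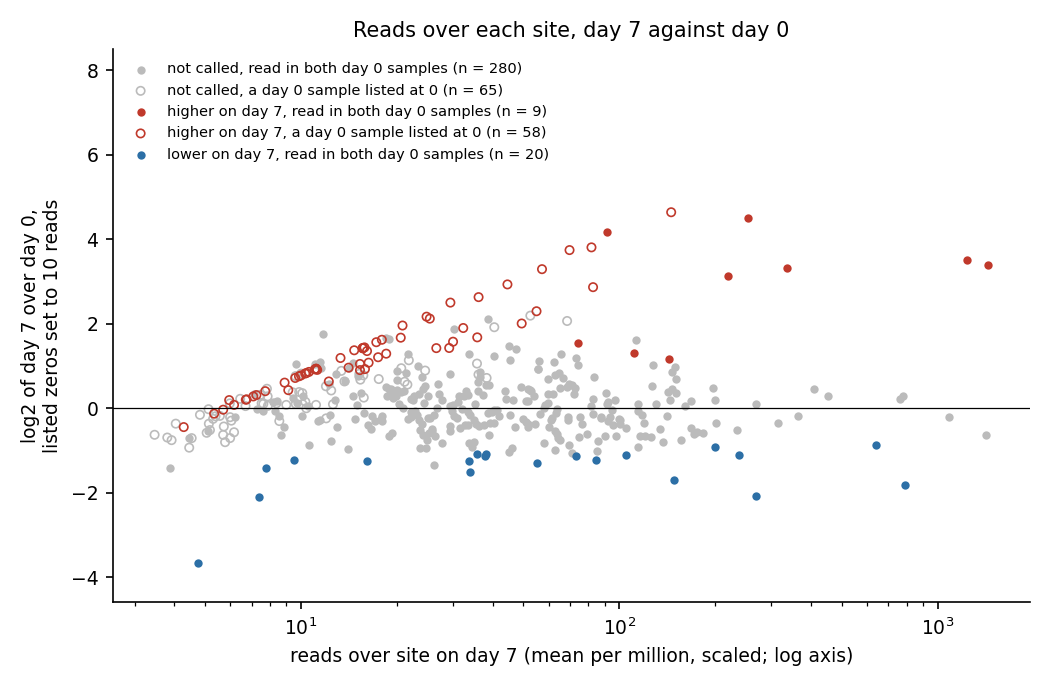
Day 7 over day 0 reads (log2, listed zeros set to 10 reads per library) against mean reads at day 7 in CPM (log axis) for the members tested, in red where called higher, blue where called lower and grey otherwise, with open circles where a day 0 sample was listed at 0. Of the 67 sites called higher 58 are open circles, and the 20 called lower are all filled.

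Between day 3 and day 7, 44 members in 39 genes rose (10.2%, background 10.4%) and 6 fell (1.39%, background 1.66%), and between day 0 and day 3 no member passed, with 40 at an unadjusted p under 0.05 (4 of 4990 sites called, a background of 0.0601% higher and 0.02% lower). The 6 that fell after day 3 were Adam23 (11-fold), Eif5a (3.39-fold), Ltbp4 (3.13-fold), Asna1 (2.38-fold), Aldh2 (2.35-fold) and Bax (2.04-fold). Among those that rose after day 3 beside the names above were Dsp, the desmosomal protein desmoplakin (at least 3.85-fold), the adhesion protein gene Cadm1 (at least 2.5-fold) and Arhgef17, a guanine nucleotide exchange factor (at least 2.28-fold). A site listed at 0 in both day 3 samples could only be called higher in this comparison. Tmsb4x, which was not called against day 0, had 1587 and 954 reads at day 0, 352 and 226 at day 3, and 9111 and 1901 at day 7, and rose 4.37-fold after day 3. Peg3 rose 5.03-fold in the same interval and the main Tpm1 site 9.34-fold. With 5 reads for each listed 0 the calls became 24 higher and 4 lower, of which 21 were among the 50. Without day 3 replicate 2 they were 24 in all, without day 7 replicate 1 they were 3, and without day 7 replicate 2 they were 12.

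Of 24 genes listed by name, among them Pou5f1, Dhx36, Ezh2 and Actb, 6 have a member, of which Eef2, Hnrnpa1, Nes, Trim71 and Tubb5 are described. In reads from day 0 to day 7, 1 of the 6 passed upward (Nes) and none downward, beside backgrounds of 16.1% and 4.21%. Trim71, an RNA-binding ubiquitin ligase of stem cells, had 126 ± 40.8 CPM of reads at day 0 and 144 ± 10.7 at day 7 (log2 difference 0.20 ± 0.29, adjusted p = 0.655). The RNA-binding protein gene Hnrnpa1 had 28.6 ± 13.9 and 30 ± 5.66. The elongation factor Eef2 had 2192 ± 730 and 1419 ± 33.7 (adjusted p = 0.169) and Tubb5 122 ± 29.8 and 131 ± 37.8. In the comparison of in vitro with day 7 odds, where 75.3% of all sites passed, Tubb5 (4.03 ± 0.91, adjusted p = 0.00445), Hnrnpa1 (4.67 ± 1.27, 0.00964) and Eef2 (2.53 ± 0.70, 0.0102) passed and Trim71 did not (2.48 ± 1.16, 0.0728) in limma.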

How the data were processed

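Per the labels' protocols, chromatin-bound poly A+ RNA of dimethyl sulfate-treated cells was fragmented, fragments of 60 to 80 bases were kept, and reverse transcription stops were counted in K+ and Li+. The submitters' processing notes name cutadapt, STAR, SAMtools, GRCm38.p6 and mm10, with no versions. The sources used here do not give the use of strand or of reads that map to several places. The deposited values are whole numbers of reads over, and stops at, each site, not normalized by the authors, per the file headers and the values. No coverage from 1 to 5 is listed, so a listed 0 can stand for up to 5 reads per cation. Starts count from 0, which was checked on 130 windows that lie inside RefSeq promoters of GRCm38.p6, all of which matched letter for letter. Of 403 gene symbols 399 are in the RefSeq table.

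K+ stops, and reads of both cations summed, were fitted over all sites with limma-voom (limma 3.58.1, R 4.3.3) on the 6 samples, after trimmed-mean scaling and a filter that needs about 10 counts in at least 2 libraries and 15 in all. Log2 odds of a stop (pseudocount 0.5, at least 20 reads in every library) were fitted with limma and beta-binomial weights. Benjamini-Hochberg adjusted p-values run over all sites tested, with a threshold of 0.05. The scripts were tested on simulated data. The samples share no known pairing across days, while K+ and Li+ of a sample belong together. Folds against a group listed at 0 use a floor of 5 stops or 10 reads per library.

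The named members are those that passed a test, up to 15 per comparison and direction by adjusted p, the 10 with the most K+ stops in cells, the 5 highest and 5 lowest in vitro ratios among members with at least 100 reads per cation, and members in 24 genes listed by name. Some members that the rule names are not reported here. The set, the gene list and the markers were chosen with earlier results of these data known. The change of K+ against Li+ between days, the replacement of listed zeros and the exchange of cation columns in the counts of samples with K+ above Li+ were added after seeing the data. Alternatives covered scaling, filters, coverage, pseudocount, weights, samples in the fit, the replicate block, leaving out each library, 9 ribosomal and mitochondrial sites, and the cation columns of day 0 replicate 2.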

Additional observations from a re-analysis of the deposited data

Results flagged for a closer look

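At 186 members the K+ against Li+ odds differed between the in vitro tables and day 7 cells by a test of the difference itself, all higher in vitro. Every listed site with 20 reads in both cations had K+ above Li+ in vitro, so neither the direction nor the size is independent of the list.

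The change of K+ against Li+ odds from day 0 to day 3 at Srebf2, a log2 difference of 4.31 (adjusted p = 0.0472 in limma, higher at day 3 in 2 of 2 samples), also came from a test of a difference between days. Its adjusted p under other settings ran from 0.0477 with the replicate block to 0.846 after exchanging K+ and Li+ in day 0 replicate 2.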

How the results depend on the processing

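No named site reversed its direction in the 747 refits run, and 594 of them kept the call. Refits in which a site no longer passed the count filter are not among them, so these counts overstate stability. Without day 7 replicate 1, 22 of the 30 named sites in reads from day 0 to day 7 were still tested. From day 3 to day 7, 8 of 21 were. The planned edgeR test was not run, because the deposited records span 2 lines and their columns could not be declared as counts. Counts of members called moved as follows. K+ stops from day 0 to day 7 (7 calls) gave 3 without a filter. From day 0 to day 3 (0 calls) total counts gave 1. From day 3 to day 7 (1 call) total counts gave 3, the 2 days alone 2 and leaving out ribosomal and mitochondrial sites 2. Reads from day 0 to day 7 (87 calls) gave 50 with the 2 days alone. From day 0 to day 3 (0 calls) the 2 days alone gave 1 and 5 reads for listed zeros gave 2. From day 3 to day 7 (50 calls) 5 reads for listed zeros gave 28. The in vitro comparison (186 calls) gave 80 at a coverage of at least 50, where 120 members were tested. The change of K+ against Li+ odds from day 0 to day 3 (1 call) gave 0 at a coverage of at least 10, 0 with a pseudocount of 1 and 0 with the day 0 replicate 2 columns exchanged. The causes were not tested.

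Leaving out single libraries gave 1 to 4 calls for K+ stops from day 0 to day 7, 0 to 1 from day 0 to day 3 and 0 to 2 from day 3 to day 7. Reads gave 6 to 131, 0 to 0 and 3 to 72, the in vitro comparison 49 to 219, and the change of odds from day 0 to day 3 gave 0 to 2.

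The deviations of same-numbered replicates had correlations of −0.07 to 0.05 for stops. For reads they were 0.25 between day 0 and day 3 and −0.05 and 0.00 for the other pairs of days, so the replicate number was not taken to pair days. With the replicate block there were 7, 0 and 1 calls in K+ stops, 61, 0 and 45 in reads, 190 in vitro and 0 for K+ against Li+ within days. Pairing K+ and Li+ by sample left the Srebf2 call. Depth left 22 of 458 members with stops enough for a test across days and 105 with 20 reads in every in-cell library.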
